A study of Mus musculus with 18 samples.

Results

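Transcripts of 51 genes of transforming growth factor beta (TGF-beta) and bone morphogenetic protein (BMP) signalling were followed in *Atrx* WT and *Atrx* KO mesenchymal progenitor cells. The 51 genes were a fixed list of 15 ligands, 11 receptors, 8 SMAD proteins, 9 antagonists and other secreted or membrane modulators, 4 latent TGF-beta binding proteins and the 4 *Id* genes. The list was chosen with earlier results of these data known, so counts of its members are not an independent test. Each gene was found by its Entrez identifier, and all 51 were among the 24100 gene rows of each count table. After the filter on low counts, 46 of the 51 were tested in the polyA libraries and 41 in the rRNA-depleted libraries.

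TGF-beta family ligands are secreted dimers that bring together type II and type I receptor kinases at the cell surface. The type I receptors phosphorylate receptor SMADs, SMAD2 and SMAD3 downstream of TGF-beta and activin and SMAD1, SMAD5 and SMAD9 downstream of BMPs, which enter the nucleus with SMAD4. Secreted antagonists bind ligands outside the cell, latent TGF-beta binding proteins hold TGF-beta in the matrix, and SMAD6 and SMAD7 inhibit the pathway inside the cell. In mesenchymal progenitors these signals are known for their part in the choice between bone, cartilage, fat and smooth muscle fates.

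The libraries came from C3H/10T1/2 cells, an established mouse mesenchymal progenitor line, grown without differentiation cues. *Atrx* WT cells had received the Cas9 plasmid PX458 with no guide, and the knockout lines sg5 (clone G7) and sg6 (clone B10) each carried one guide against *Atrx*, which encodes a chromatin remodeler. Each line gave 3 polyA and 3 rRNA-depleted libraries. Each knockout is therefore a single clone, a difference from WT includes any other difference between the clones, and p-values measure the spread between libraries of a line, which may be technical. Both knockout comparisons of a kind share the same 3 WT libraries.

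Library totals ran from 27544833 to 235346363 counts in the polyA table, with the deepest libraries in sg5, and from 20135336 to 33187136 in the rRNA-depleted table, where genes and transposable element loci were counted together. *Atrx* itself was at 276, 297 and 328 CPM (counts scaled to a common library size) in the WT polyA libraries, 138, 114 and 129 CPM in sg5 and 122, 129 and 141 CPM in sg6, so its RNA was lower in every knockout library. In the rRNA-depleted libraries it ran from 192 to 231 CPM in WT and from 60.8 to 112 CPM over both clones. Of 10 mesenchymal markers, summed to 17726 to 19696 CPM (WT), 19093 to 20141 CPM (sg5) and 23656 to 26498 CPM (sg6), *Col1a1*, *Col1a2*, *Vim* and *Prrx1* were the highest in all lines. *Pdgfra* (WT mean 318 CPM) fell to means of 209 and 168 CPM, *Twist2* (WT mean 6.57 CPM) fell to 4.61 and 3.49 CPM, and *Thy1* averaged 0.997 CPM in WT, 0.307 CPM in sg5 and 134 CPM in sg6. *Pdgfrb* (WT mean 419 CPM) rose to means of 513 and 556 CPM. In sg6 alone *Vim* rose from a WT mean of 4899 to 7610 CPM, *Col1a1* from 5719 to 7799 CPM and *Col1a2* from 6229 to 8004 CPM. By the adjusted p, 1 of the 10 rose and 3 fell in sg5, where 13.6% and 13.4% of all genes tested did. In sg6, 5 rose and 2 fell, against 16.1% and 14.6% of all genes tested. Among the polyA libraries the summed level of 8 epithelial markers was 2.94 to 5.07 CPM (WT), 0.979 to 1.89 CPM (sg5) and 0.459 to 0.916 CPM (sg6), that of 8 blood markers 5.52 to 6.85, 4.85 to 5.82 and 5.11 to 5.91, and that of 8 endothelial markers 22.0 to 36.6, 23.3 to 27.9 and 14.6 to 19.9. Under 1 CPM in every line were 7 of the epithelial markers (all but *Cdh1*), 6 of the blood markers (all but *Cd68* and *Itgam*) and 5 of the endothelial markers (all but *Tek*, *Vwf* and *Erg*), with *Cldn5* at 0. The part of these markers in the results was not tested. Among the rRNA-depleted libraries, sg5 replicate 1 had the lowest correlations of log2 CPM with its own group (0.967 and 0.971, over genes), and results from that table are given with and without it.

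In the polyA libraries, members of the pathway moved in both directions between the *Atrx* KO clones and WT. The secreted antagonists *Nog*, *Chrdl1* and *Fstl3* fell and *Fst* rose, the type I receptor *Acvrl1* and the matrix protein *Ltbp4* fell, and the activin subunit *Inhbb* and the inhibitory *Smad7* rose, in each clone by more than 1 on the log2 scale. The study's threshold requires an adjusted p under 0.05 and a change larger than 1 on the log2 scale. By it, 3 of 46 members rose and 5 fell in sg5, where 3.18% of all genes tested rose and 6.96% fell. In sg6, 5 of 46 rose and 8 fell, against 3.64% and 7.54% of all genes tested. By the adjusted p alone, 16 members rose and 8 fell in sg5 (13.6% and 13.4% of all genes tested) and 15 rose and 11 fell in sg6 (16.1% and 14.6%). The median log2 fold change over the 46 members was 0.22 in sg5 and 0.20 in sg6, and over all genes tested -0.0024 and -0.0061. Without WT replicate 1 the members higher at the threshold numbered 5 in sg5 and 8 in sg6. The share of all genes was not taken in that fit, and the shares above are from all libraries. These are bulk libraries, so fewer cells of a type and less RNA per cell cannot be told apart. The plot of log2 fold changes by role shows all 46 tested members.

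**Figure D1:**
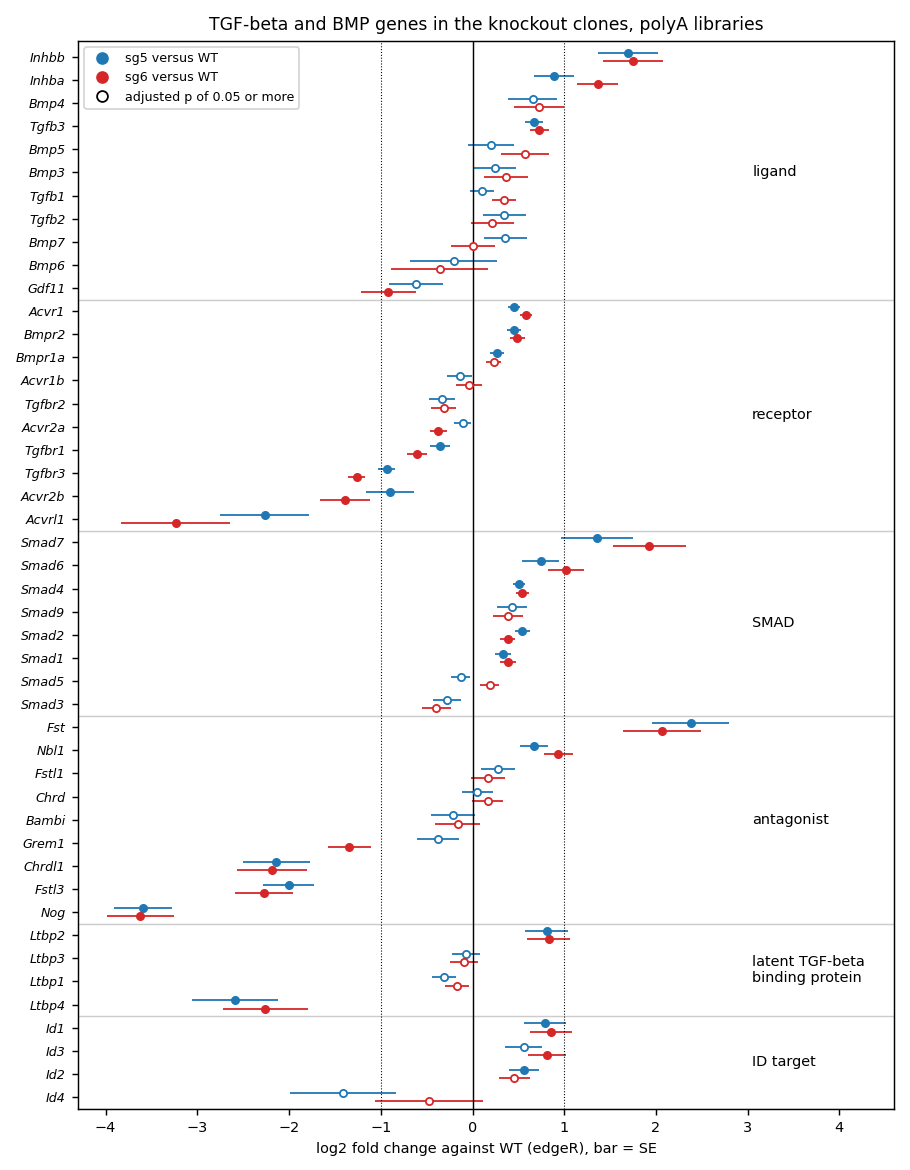
Log2 fold change of each tested member against WT in the polyA libraries (x axis, edgeR, bars are SE, 3 libraries per line), grouped by role on the y axis, with dotted lines at a change of 1 in either direction. Filled points have an adjusted p under 0.05; *Nog* lies farthest to the left at -3.59 in sg5 and -3.62 in sg6, and *Fst* farthest to the right at 2.38 and 2.07.

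Levels were compared between genes only as CPM per kb of merged exons. In WT polyA libraries *Fstl1*, a secreted follistatin-like protein, stood far above every other member at 504 ± 105 CPM per kb (SD, n = 3). In these libraries the next were *Ltbp2* at 56.1 ± 7.73, *Id3* at 51.6 ± 15.8, *Id1* at 39.7 ± 14.9 and *Id2* at 32.8 ± 7.48 CPM per kb, and the mean ± SD ranges of neighbours among these 4 overlapped. In the WT rRNA-depleted libraries the order differed, with *Fstl1* at 308 ± 73.2, *Id1* at 197 ± 41.7, *Id3* at 105 ± 24.1 and *Ltbp2* at 6.49 ± 2.15 CPM per kb. Of the ligands, *Tgfb2* (23.9 ± 3.39), *Bmp4* (18.7 ± 6.26), *Tgfb3* (13 ± 0.617) and *Gdf11* (10.5 ± 3.02 CPM per kb) were the most abundant, and the mean ± SD ranges of neighbours in that order overlapped. The highest receptors were *Tgfbr2* at 25.9 ± 3.40 and *Bmpr1a* at 24.5 ± 1.37 CPM per kb, which did not differ beyond their spread, and the highest SMAD was *Smad4* at 20.1 ± 0.203. Several members that changed most were scarce in WT, among them *Nog* at 0.675 ± 0.189, *Fstl3* at 0.378 ± 0.0951 and *Acvrl1* at 0.235 ± 0.136 CPM per kb. *Bmp2*, *Gdf6* and *Gdf10* had 0 counts in every polyA library, and *Gdf5* and *Bmpr1b* were below the filter.

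Among the 15 ligands, 11 were tested in the polyA libraries. The activin subunits changed most. Positions are from the GENCODE annotation of GRCm38 (mm10). *Inhbb* encodes the inhibin beta B subunit of activin B (chr1:119415465-119422248, minus strand), and it was at 1.50, 1.45 and 1.16 CPM in WT, 4.73, 4.93 and 3.62 CPM in sg5 and 6.94, 4.19 and 2.66 CPM in sg6. Every knockout library lay above every WT library, and the log2 fold change was 1.69 ± 0.33 in sg5 (edgeR adjusted p = 0.00511) and 1.75 ± 0.33 in sg6 (edgeR adjusted p = 0.00374). *Inhba* encodes the beta A subunit of activin A (chr13:16011851-16031621, plus strand), and it was at 5.0, 4.39 and 3.14 CPM in WT, 6.57, 9.21 and 7.32 CPM in sg5 and 11.9, 11.9 and 8.33 CPM in sg6. Again no knockout library overlapped WT, with a log2 fold change of 0.89 ± 0.22 in sg5 (edgeR adjusted p = 0.0158) and 1.36 ± 0.22 in sg6 (edgeR adjusted p = 0.00172). In sg5 *Inhba* was past the adjusted p and short of the fold threshold, and the sg5 call was lost without sg5 replicate 2 (edgeR adjusted p = 0.0593). *Tgfb3*, one of the TGF-beta ligands, rose by less, with log2 fold changes of 0.67 ± 0.10 in sg5 (edgeR adjusted p = 0.00142) and 0.73 ± 0.10 in sg6 (edgeR adjusted p = 7.77e-04). *Gdf11*, a ligand of the activin branch, fell in sg6 (-0.92, edgeR adjusted p = 0.0433) and missed when one library was left out, without WT replicates 2 or 3, sg5 replicate 3 or sg6 replicates 1 or 2 (edgeR adjusted p of 0.0571 to 0.132). Its value in sg5 was -0.62 (edgeR adjusted p = 0.155). The abundant *Bmp4* was at 0.66 and 0.73 and *Tgfb2* at 0.35 and 0.21, and neither passed in a clone. *Bmp3*, *Bmp5*, *Bmp6*, *Bmp7* and *Tgfb1* did not pass in either clone, with log2 fold changes from -0.21 to 0.36 in sg5 and from -0.36 to 0.57 in sg6.

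Of the 11 receptors, 10 were tested, and 3 rose and 4 fell in sg5 by the adjusted p, against 2 and 5 in sg6. *Acvrl1* encodes ALK1, a type I receptor best known in endothelium (chr15:101128522-101145336, plus strand). It was at 0.524, 0.835 and 1.65 CPM in WT, 0.278, 0.166 and 0.191 CPM in sg5 and 0.118, 0.177 and 0.0178 CPM in sg6, so all knockout libraries lay below WT at a low level. Its log2 fold change was -2.27 ± 0.49 in sg5 (edgeR adjusted p = 0.00867) and -3.24 ± 0.59 in sg6 (edgeR adjusted p = 0.00325), and the lowest library, sg6 replicate 3, held 1 count. Mean levels of endothelial markers differed in both directions beside it. *Erg* went from a WT mean of 25.8 CPM to 10.7 and 5.71 CPM in sg5 and sg6, and *Tek* from 0.962 to 11.5 and 9.33 CPM. By the adjusted p, 1 of the 5 tested rose and 2 fell in sg5 (13.6% and 13.4% of all genes tested). In sg6, 1 rose and 3 fell (16.1% and 14.6%). Only *Tek* rose, whereas *Erg* and *Pecam1* fell in each clone and *Vwf* in sg6. The part of these markers in this result was not tested. *Tgfbr3* encodes betaglycan, a co-receptor that presents TGF-beta2 to the signalling receptors (chr5:107106570-107289629, minus strand). It was at 67.9, 67.5 and 80.1 CPM in WT, 35.6, 37.6 and 39.3 CPM in sg5 and 27.2, 31.2 and 31.3 CPM in sg6, with the 3 groups apart from each other. The log2 fold change was -0.94 ± 0.10 in sg5 (edgeR adjusted p = 1.64e-04) and -1.26 ± 0.10 in sg6 (edgeR adjusted p = 2.96e-05). *Acvr2b*, a type II activin receptor (chr9:119402118-119434995, plus strand), was at 10.4, 16.6 and 25.4 CPM in WT, 9.28, 8.48 and 10.5 CPM in sg5 and 6.07, 6.64 and 7.35 CPM in sg6. The sg6 libraries lay below WT, whereas the highest sg5 library overlapped the lowest WT library. Its log2 fold change was -0.90 ± 0.26 in sg5 (edgeR adjusted p = 0.0333) and -1.39 ± 0.27 in sg6 (edgeR adjusted p = 0.00445), and the sg5 call was lost without WT replicates 2 or 3, sg5 replicates 1, 2 or 3 or sg6 replicate 2 (edgeR adjusted p of 0.0506 to 0.106), and with only the 2 groups compared (0.0649).

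The other receptor changes were under 1 on the log2 scale. *Tgfbr1*, the type I receptor for TGF-beta, fell by the test in each clone (-0.36 in sg5 with an edgeR adjusted p of 0.0385 and -0.61 in sg6 with 0.00310), although the sg5 call was lost without WT replicates 2 or 3, sg5 replicates 1 or 3 or sg6 replicates 1, 2 or 3 (edgeR adjusted p of 0.0520 to 0.132), and with no filter (0.0567) and with only the 2 groups compared (0.0756). *Acvr1*, which encodes the type I receptor ALK2, rose by 0.45 and 0.58, and *Bmpr2*, the type II receptor for BMPs, by 0.45 and 0.49. *Bmpr1a*, the BMP type I receptor ALK3, was at 0.27 (edgeR adjusted p = 0.0331) and 0.23 (0.0530), and its sg5 call was lost without WT replicates 2 or 3, sg5 replicates 1, 2 or 3 or sg6 replicates 2 or 3 (edgeR adjusted p of 0.0539 to 0.104), and with only the 2 groups compared (0.0622) and with thinned counts (0.0521). *Acvr2a*, the second type II activin receptor, fell in sg6 (-0.37, edgeR adjusted p = 0.0133) and was at -0.11 in sg5 (0.418), the sg6 call being lost without sg6 replicate 2 (edgeR adjusted p = 0.0517). *Tgfbr2* and *Acvr1b* did not pass in either clone.

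All 8 SMAD genes were tested in the polyA libraries, and by the adjusted p 5 rose in each clone while the other 3 did not pass. The largest changes were in the inhibitory SMADs, which are themselves known targets of the pathway. *Smad7* (chr18:75367529-75395935, plus strand) was at 12.8, 7.61 and 6.58 CPM in WT, 26.2, 24.8 and 17.1 CPM in sg5 and 53.7, 29.6 and 18 CPM in sg6. Every knockout library lay above the WT libraries, and the log2 fold change was 1.35 ± 0.39 in sg5 (edgeR adjusted p = 0.0311) and 1.93 ± 0.40 in sg6 (edgeR adjusted p = 0.00605). *Smad6*, the inhibitor that acts mainly on BMP signals (chr9:63953076-64022059, minus strand), was at 24.1, 15.9 and 17.1 CPM in WT, 33.1, 33.6 and 28.4 CPM in sg5 and 47.5, 38.3 and 29.4 CPM in sg6. Its knockout libraries also lay above WT, with a log2 fold change of 0.74 ± 0.20 in sg5 (edgeR adjusted p = 0.0226) and 1.02 ± 0.20 in sg6 (edgeR adjusted p = 0.00457). Both sg5 calls depended on single libraries. The sg5 call of *Smad7* was lost without WT replicates 2 or 3 or sg5 replicates 1 or 2 (edgeR adjusted p of 0.0826 to 0.112). That of *Smad6* was lost without WT replicates 2 or 3 or sg5 replicates 1 or 2 (edgeR adjusted p of 0.0625 to 0.0913). The shared partner *Smad4* rose by 0.51 and 0.54, *Smad2* by 0.54 and 0.39 and *Smad1* by 0.33 and 0.39 in sg5 and sg6. The *Smad1* calls were lost without WT replicates 2 or 3 or sg5 replicates 1, 2 or 3 (edgeR adjusted p of 0.0503 to 0.0911), and with only the 2 groups compared (0.0565) and with thinned counts (0.0748) for sg5 and without WT replicate 2 (edgeR adjusted p = 0.0507) for sg6. *Smad3*, *Smad5* and *Smad9* did not pass in either clone, with log2 fold changes from -0.39 for *Smad3* in sg6 to 0.43 for *Smad9* in sg5. The plot of SMAD and ID transcripts relative to the WT mean shows these libraries one by one.

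**Figure D2:**
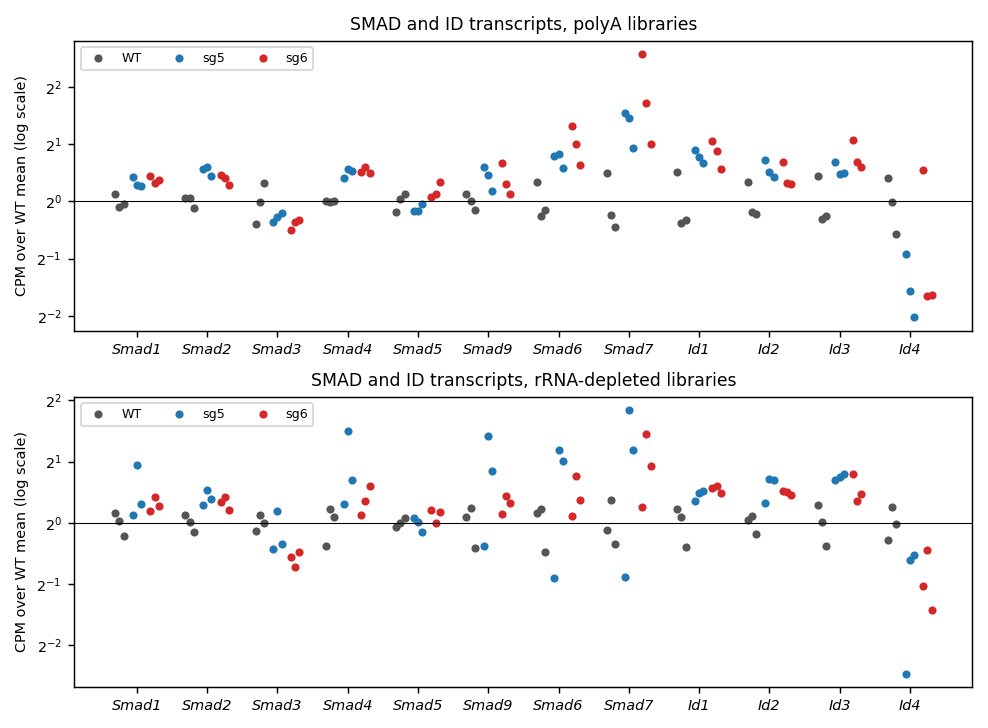
CPM of each library divided by the mean of the 3 WT libraries (y axis, log scale) for 8 SMAD and 4 *Id* genes (x axis) in the polyA libraries above and the rRNA-depleted libraries below. In the polyA libraries *Smad7* reached 53.7 CPM in sg6 replicate 1; in the rRNA-depleted libraries sg5 replicate 1 lay apart from the other two sg5 libraries for *Smad6*, *Smad7* and *Smad9*.

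Promoter sequence from RefSeq (GRCm38.p6) was matched for 35 of the 51 members, which together have 43 annotated starts. Each window runs from 250 bases before to 50 bases after a start. Of 32851 such windows over all genes, 0.213% held the palindromic SMAD box GTCTAGAC and 11.9% the GC-rich element GGCGCC, both of which read the same on either strand. Not searched were *Bmp2*, *Bmp3*, *Bmp7*, *Gdf5*, *Gdf6*, *Tgfb3*, *Tgfbr3*, *Acvrl1*, *Smad2*, *Smad4*, *Smad7*, *Nog*, *Chrdl1*, *Fst*, *Bambi* and *Id1*. Of the matched members, the SMAD box was found in 1, *Smad6*, and GGCGCC in 13 members, including *Grem1*, *Ltbp4*, *Tgfbr1*, *Bmpr1a*, *Bmpr2* and *Id2*. Counted by window, as for all genes, the SMAD box was in 1 and GGCGCC in 15 of the 43 member windows. Shown here, from 250 bases before to 10 bases after the start, are *Smad6* (chr9:64022050-64022309, minus strand), the one matched member with the SMAD box, *Grem1* (chr2:113758639-113758898, minus strand), and *Inhbb* (chr1:119422239-119422498, minus strand), a member that rose and holds neither motif. *Grem1* was the one member past the adjusted p between the clones in the polyA libraries, a call kept in 2 of 9 fits that each left out one library. Capitals mark the motifs.
Smad6: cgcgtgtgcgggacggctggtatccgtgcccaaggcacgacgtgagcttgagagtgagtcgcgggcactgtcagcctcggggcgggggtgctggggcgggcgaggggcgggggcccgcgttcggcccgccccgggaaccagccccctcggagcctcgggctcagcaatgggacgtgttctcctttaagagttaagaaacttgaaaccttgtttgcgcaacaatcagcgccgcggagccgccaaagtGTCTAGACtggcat
Grem1: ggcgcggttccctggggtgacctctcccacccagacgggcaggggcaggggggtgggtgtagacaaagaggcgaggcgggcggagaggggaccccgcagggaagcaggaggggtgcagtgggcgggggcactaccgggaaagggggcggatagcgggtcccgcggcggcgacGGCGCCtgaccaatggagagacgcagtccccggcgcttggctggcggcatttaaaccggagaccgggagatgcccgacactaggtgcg
Inhbb: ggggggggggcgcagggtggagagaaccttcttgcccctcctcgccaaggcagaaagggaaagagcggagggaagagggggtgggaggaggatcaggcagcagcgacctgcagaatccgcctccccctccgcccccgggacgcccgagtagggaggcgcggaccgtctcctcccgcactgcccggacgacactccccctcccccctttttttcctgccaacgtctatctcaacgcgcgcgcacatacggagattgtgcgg
The SMAD box of *Smad6* starts 4 bases before the transcription start and spans it, and GGCGCC of *Grem1* starts 78 bases before its start. A match describes the letters in these windows only.

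The antagonists held the largest changes of any role. *Nog* encodes noggin, which binds BMPs outside the cell (chr11:89300638-89302332, minus strand). It was at 1.43, 1.2 and 0.801 CPM in WT, 0.107, 0.0916 and 0.0802 CPM in sg5 and 0.133, 0.0482 and 0.0888 CPM in sg6. Knockout libraries lay far under WT, with 17, 21 and 13 counts in sg5 and 9, 3 and 5 in sg6. The log2 fold change was -3.59 ± 0.32 in sg5 (edgeR adjusted p = 7.30e-05) and -3.62 ± 0.36 in sg6 (edgeR adjusted p = 1.30e-04). *Chrdl1*, chordin-like 1, also binds BMPs (chrX:143285674-143394262, minus strand) and was at 4.93, 4.85 and 4.65 CPM in WT, 1.77, 0.650 and 0.863 CPM in sg5 and 0.829, 0.868 and 1.47 CPM in sg6. The WT libraries were close together and all knockout libraries lay below them. Its log2 fold change was -2.14 ± 0.37 in sg5 (edgeR adjusted p = 0.00296) and -2.19 ± 0.38 in sg6 (edgeR adjusted p = 0.00252). *Fstl3*, a follistatin-like inhibitor of activin (chr10:79777272-79782630, plus strand), was at 0.664, 1.11 and 1.0 CPM in WT, 0.246, 0.196 and 0.265 CPM in sg5 and 0.163, 0.145 and 0.284 CPM in sg6, again below WT in every knockout library. The log2 fold change was -2.01 ± 0.28 in sg5 (edgeR adjusted p = 9.67e-04) and -2.27 ± 0.32 in sg6 (edgeR adjusted p = 7.93e-04).

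*Fst* moved in the opposite direction. It encodes follistatin, which binds activins (chr13:114452290-114458951, minus strand), and it was at 5.24, 3.6 and 5.16 CPM in WT, 37.1, 20.9 and 14.2 CPM in sg5 and 29.8, 16.1 and 12.1 CPM in sg6. All knockout libraries lay above WT and were widely spread. The log2 fold change was 2.38 ± 0.42 in sg5 (edgeR adjusted p = 0.00339) and 2.07 ± 0.42 in sg6 (edgeR adjusted p = 0.00555). *Nbl1*, which encodes the BMP antagonist DAN, rose by less, by 0.67 (edgeR adjusted p = 0.0124) and 0.94 (0.00207), the sg5 call being lost without WT replicate 2 (edgeR adjusted p = 0.0602). *Grem1* encodes gremlin 1, another BMP antagonist (chr2:113746164-113758646, minus strand), and was at 93.3, 67.1 and 55.0 CPM in WT, 49.0, 63.1 and 53.1 CPM in sg5 and 20.3, 35.2 and 29.2 CPM in sg6. The sg6 libraries lay below all others, while the sg5 libraries overlapped WT. Its log2 fold change was -0.38 ± 0.23 in sg5 (edgeR adjusted p = 0.256) and -1.34 ± 0.23 in sg6 (edgeR adjusted p = 0.00255). Between the clones *Grem1* was higher in sg5 by 0.96 ± 0.23 (edgeR adjusted p = 0.0489), and that call was lost without WT replicate 2, sg5 replicates 1, 2 or 3 or sg6 replicates 1, 2 or 3 (edgeR adjusted p of 0.0546 to 0.156). *Chrd*, *Fstl1* and *Bambi* did not pass in either clone in these libraries. The plot of CPM by library shows these antagonists with the other members past the threshold.

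**Figure D3:**
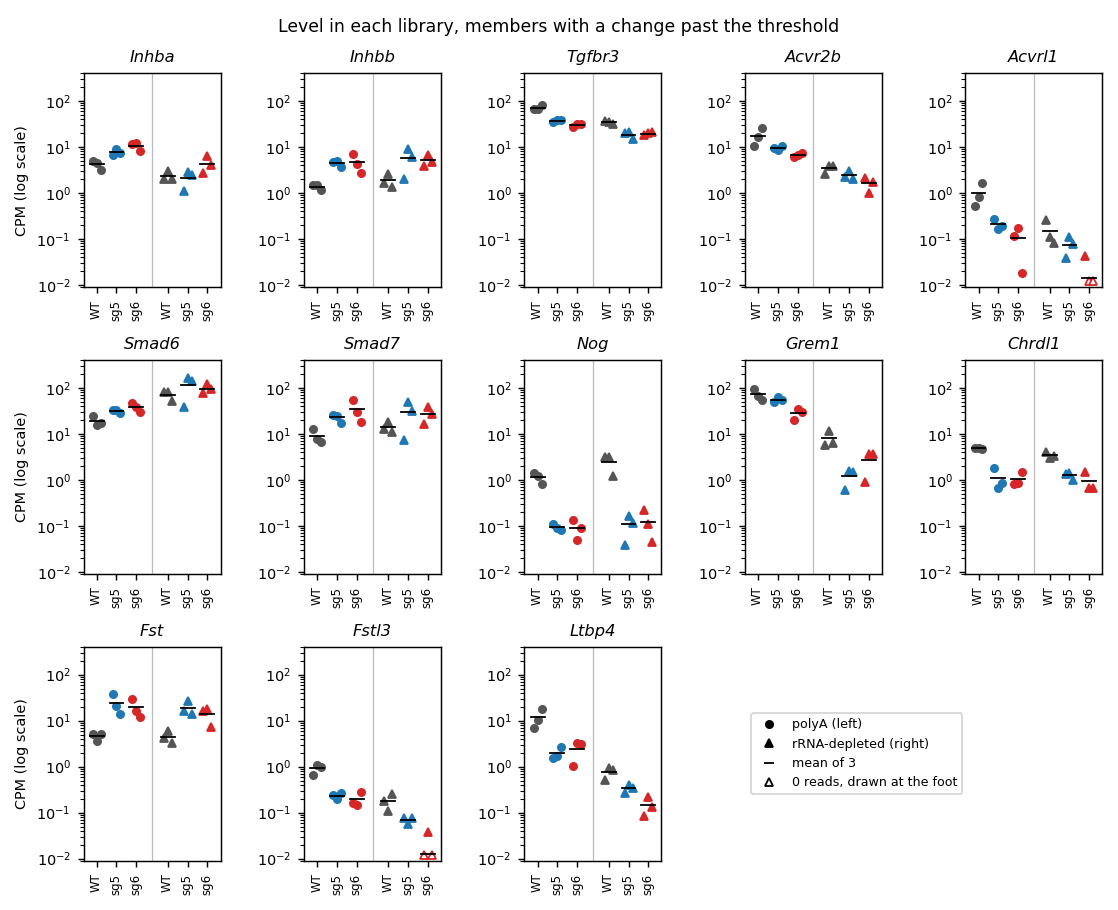
CPM (y axis, log scale) in each library of the 13 members with a change past the threshold in the polyA libraries, with polyA libraries left and rRNA-depleted libraries right in each panel, points for libraries and a bar for the mean of 3. *Nog* fell from between 0.801 and 1.43 CPM in WT polyA libraries to at most 0.133 CPM in a knockout library.

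Of the 4 latent TGF-beta binding proteins, *Ltbp4* fell and *Ltbp2* rose. *Ltbp4*, a matrix protein that tethers latent TGF-beta and takes part in elastic fibre assembly (chr7:27305136-27337692, minus strand), was at 7.02, 10.3 and 17.9 CPM in WT, 1.54, 1.71 and 2.62 CPM in sg5 and 1.05, 3.20 and 3.16 CPM in sg6. All knockout libraries lay below WT, and the log2 fold change was -2.59 ± 0.47 in sg5 (edgeR adjusted p = 0.00364) and -2.26 ± 0.47 in sg6 (edgeR adjusted p = 0.00612). *Ltbp2*, a fibrillin-associated relative that does not bind latent TGF-beta, rose by 0.81 (edgeR adjusted p = 0.0296) and 0.83 (0.0240). These calls were lost without WT replicates 1 or 2 or sg5 replicates 2 or 3 (edgeR adjusted p of 0.0731 to 0.0951) for sg5 and without WT replicates 1 or 2 or sg6 replicates 2 or 3 (edgeR adjusted p of 0.0631 to 0.0874) for sg6. *Ltbp1* and *Ltbp3* did not pass in either clone.

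The *Id* genes encode helix-loop-helix proteins without a DNA-binding domain and are common readouts of BMP signalling. *Id1* was at 66.1, 35.6 and 36.6 CPM in WT, 86.3, 78.8 and 73.3 CPM in sg5 and 95.9, 85.2 and 67.9 CPM in sg6. Knockout libraries lay above WT by a small margin over WT replicate 1. The log2 fold change was 0.79 ± 0.23 in sg5 (edgeR adjusted p = 0.0320) and 0.85 ± 0.23 in sg6 (edgeR adjusted p = 0.0214). The sg5 call was lost without WT replicates 2 or 3, sg5 replicates 1, 2 or 3 or sg6 replicate 2 (edgeR adjusted p of 0.0524 to 0.114), and with only the 2 groups compared (0.0532). The sg6 call was lost without WT replicates 2 or 3 or sg6 replicates 1 or 2 (edgeR adjusted p of 0.0621 to 0.0826), and with only the 2 groups compared (0.0514). *Id3* was at 0.56 in sg5 (edgeR adjusted p = 0.0700) and rose by 0.81 in sg6 (0.0149), lost without WT replicate 2 or sg6 replicate 1 (edgeR adjusted p of 0.0560 to 0.0631). *Id2* rose by 0.56 in sg5 (edgeR adjusted p = 0.0343) and was at 0.45 in sg6 (0.0681), the sg5 call being lost without WT replicates 2 or 3, sg5 replicates 1, 2 or 3 or sg6 replicate 2 (edgeR adjusted p of 0.0520 to 0.125). *Id4*, the scarcest of the 4, was at -1.41 and -0.48 and did not pass in either clone. No *Id* gene passed the study's threshold, and whether a clone's call differs from the other's was tested directly in the comparison of sg5 with sg6.

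Directly between the clones, 0 of 46 members passed the threshold in the polyA libraries, where 2.61% of all genes tested did (edgeR and DESeq2 alike, and 5 members had an unadjusted edgeR p under 0.05). *Grem1* was the one member past the adjusted p, against 4.79% of all genes. Median log2 fold change of sg5 over sg6 was -0.028 over the members. In the rRNA-depleted libraries 0 of 41 members passed with or without the fold threshold (edgeR, 1.48% and 1.57% of all genes tested). There too DESeq2 gave 0 at the threshold, and 8 members had an unadjusted edgeR p under 0.05.

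The rRNA-depleted libraries gave a second measurement of the same lines, with adjusted p taken over genes and transposable element loci together. At the threshold 1 of 41 members rose and 3 fell in sg5, against 3.04% and 4.31% of genes tested, and 1 rose and 3 fell in sg6, against 2.16% and 3.59%. By the adjusted p alone the counts were 3 and 5 in sg5 (5.64% and 5.1% of genes) and 1 and 4 in sg6 (3.56% and 4.03%). At the threshold, a fit that kept replicate number as a block gave 3 higher and 3 lower in sg5 and 2 higher and 5 lower in sg6. The share of all genes was not taken in that fit. *Nog* was at 3.07, 3.13 and 1.2 CPM in WT, 0.0385, 0.167 and 0.116 CPM in sg5 and 0.215, 0.112 and 0.0438 CPM in sg6, below WT in every knockout library. Its log2 fold change was -4.53 ± 0.59 in sg5 (edgeR adjusted p = 5.20e-04) and -4.25 ± 0.57 in sg6 (edgeR adjusted p = 6.85e-04). *Fst* was at 4.20, 6.05 and 3.20 CPM in WT, 16.6, 26.4 and 13.9 CPM in sg5 and 16.1, 18.1 and 7.32 CPM in sg6, above WT in every knockout library. The log2 fold change was 2.08 ± 0.35 in sg5 (edgeR adjusted p = 0.00348) and 1.63 ± 0.35 in sg6 (edgeR adjusted p = 0.0197). *Chrdl1* was at 4.07, 2.95 and 3.37 CPM in WT, 1.35, 1.39 and 1.0 CPM in sg5 and 1.46, 0.671 and 0.657 CPM in sg6, and its log2 fold change was -1.47 ± 0.34 in sg5 (edgeR adjusted p = 0.0266) and -1.89 ± 0.35 in sg6 (edgeR adjusted p = 0.00738). *Tgfbr3* was at 36.8, 34.6 and 31.4 CPM in WT, 19.8, 20.7 and 14.7 CPM in sg5 and 18, 20.05 and 20.7 CPM in sg6, and its log2 fold change was -0.90 ± 0.17 in sg5 (edgeR adjusted p = 0.00715) and -0.81 ± 0.17 in sg6 (edgeR adjusted p = 0.0165). Neither overlapped WT in a knockout library. *Nog*, *Fst*, *Chrdl1* and *Tgfbr3* were the 4 members past the adjusted p in each clone in each kind of library, though with no filter *Tgfbr3* in sg6 and *Chrdl1* in sg5 missed in the rRNA-depleted libraries.

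Several of these calls rested on single libraries or on the filter. In fits that each left out one of the 9 libraries, *Nog* kept its call every time for each clone and *Fst* every time for sg5. *Fst* in sg6 missed without WT replicates 1 or 3 or sg6 replicate 2 (edgeR adjusted p of 0.0621 to 0.133). *Chrdl1* missed in sg5 without WT replicates 1, 2 or 3 or sg5 replicates 1, 2 or 3 (edgeR adjusted p of 0.0520 to 0.115), and with no filter (0.0745) and in sg6 without sg6 replicate 3 (edgeR adjusted p = 0.0624). *Tgfbr3* missed in sg5 without WT replicates 1 or 2 or sg5 replicate 3 (edgeR adjusted p of 0.0512 to 0.0692) and in sg6 without WT replicates 1 or 2 or sg6 replicates 1, 2 or 3 (edgeR adjusted p of 0.0806 to 0.123), and with no filter (0.149). The *Chrdl1* and *Tgfbr3* differences in the polyA libraries kept their calls in all such fits.

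For *Grem1* the comparison of the clones had opposite signs in the 2 kinds of library. In the rRNA-depleted libraries it was at 5.74, 11.7 and 6.46 CPM in WT, 0.616, 1.56 and 1.51 CPM in sg5 and 0.905, 3.61 and 3.68 CPM in sg6, so every knockout library lay below WT. Its log2 fold change was -2.71 ± 0.50 in sg5 (edgeR adjusted p = 0.00673) and -1.54 ± 0.47 in sg6 (edgeR adjusted p = 0.119), and sg5 against sg6 was -1.17 ± 0.50 (edgeR adjusted p = 0.582), the opposite sign to the polyA libraries. The sg6 difference of *Grem1* from WT passed the adjusted p with DESeq2 (0.0331), with no filter (0.00228) and with the replicate block (0.00604), at a log2 fold change of -1.66 with the block. *Ltbp4* was below WT in every knockout library, at -1.23 in sg5 (edgeR adjusted p = 0.180) and -2.36 in sg6 (0.0202), and the sg6 call was lost without WT replicates 2 or 3 or sg6 replicates 1 or 3 (edgeR adjusted p of 0.0876 to 0.122), and with no filter (0.107). *Chrd*, which encodes the BMP antagonist chordin, fell in sg5 by 0.89 (edgeR adjusted p = 0.0438), and *Id2* and *Id3* rose there by 0.59 (0.0470) and 0.74 (0.0307). These were lost without WT replicates 1, 2 or 3, sg5 replicates 1, 2 or 3 or sg6 replicates 1 or 3 (edgeR adjusted p of 0.0605 to 0.156), and with median-of-ratios scaling (0.0677) and with no filter (0.316) for *Chrd*, without WT replicates 1, 2 or 3, sg5 replicates 2 or 3 or sg6 replicates 1, 2 or 3 (edgeR adjusted p of 0.0621 to 0.197), and with median-of-ratios scaling (0.0595), with no filter (0.300) and with only the 2 groups compared (0.0858) for *Id2* and without WT replicates 2 or 3, sg5 replicates 2 or 3 or sg6 replicate 3 (edgeR adjusted p of 0.0645 to 0.149) for *Id3*. *Id1*, called in each clone in the polyA libraries, missed here at 0.46 in sg5 (edgeR adjusted p = 0.143) and 0.56 in sg6 (0.0919). No *Id* gene passed in sg6 in these libraries. *Acvrl1* and *Fstl3* were below the filter, with 6, 3 and 3 counts of *Acvrl1* in WT, 1, 2 and 2 in sg5 and 1, 0 and 0 in sg6.

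Leaving out the library sg5 replicate 1 changed several calls in this table. *Smad7* was at 12.8, 18.1 and 11 CPM in WT, 7.50, 50.0 and 31.9 CPM in sg5 and 16.6, 38.3 and 26.4 CPM in sg6, and *Smad6* was at 79.1, 83.1 and 51.1 CPM in WT, 38.0, 161 and 143 CPM in sg5 and 76.9, 120.3 and 92.0 CPM in sg6. In each case the first sg5 library was the lowest of all 9. With all libraries the sg5 log2 fold change was 1.09 (edgeR adjusted p = 0.272) for *Smad7* and 0.68 (0.406) for *Smad6*, and without that library 1.59 ± 0.30 (edgeR adjusted p = 0.00559) and 1.13 ± 0.23 (edgeR adjusted p = 0.00906). *Inhbb* was at 1.58 in sg5 (edgeR adjusted p = 0.0739) and 1.45 in sg6 (0.131), and without it at 2.03 ± 0.34 (edgeR adjusted p = 0.00189) and 1.50 ± 0.31 (edgeR adjusted p = 0.0108). With all 9 libraries *Inhbb* passed the adjusted p in sg5 with DESeq2 (0.00938), with no filter (4.32e-04) and with the replicate block (0.0164) and in sg6 with DESeq2 (0.0282), with no filter (0.00319), with the replicate block (0.0214) and with only the 2 groups compared (0.0174), so this call turned on the method as well as on the library. With no filter *Smad7* also passed, in sg5 (4.15e-04) and in sg6 (0.00749). In the main fit its sg6 log2 fold change was 0.96 (edgeR adjusted p = 0.452), and that of *Smad6* was 0.44 (0.741). Neither passed in sg6 in any fit that left out 1 library (edgeR adjusted p of at least 0.0626 for *Smad7* and 0.341 for *Smad6*). Without sg5 replicate 1, 7 members were past the threshold upward in sg5 in place of 1, namely *Inhbb*, *Acvr1*, *Smad4*, *Smad6*, *Smad7*, *Smad9* and *Fst*. The share of all genes past it was not taken in fits that left out a library. Whether the members rose in number more than all genes did was therefore not tested. Without sg5 replicate 1 the *Nog* and *Fst* values in sg5 were -4.07 ± 0.65 (edgeR adjusted p = 0.00132) and 2.20 ± 0.36 (edgeR adjusted p = 0.00168), and *Grem1* was at -2.34 ± 0.50 (edgeR adjusted p = 0.0125). *Inhba* in sg5 was at -0.16 and without that library at 0.19, neither past the test. Without WT replicate 1, sg5 replicate 3, sg6 replicate 1 or sg6 replicate 2 the upward count in sg5 was 3, 2, 3 and 3. The upward count in sg6, 1 with all libraries, was 0 without WT replicate 1, WT replicate 3 or sg6 replicate 2 and 2 without sg5 replicate 1, and the downward count there was 1 without sg6 replicate 3.

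**Figure D4:**
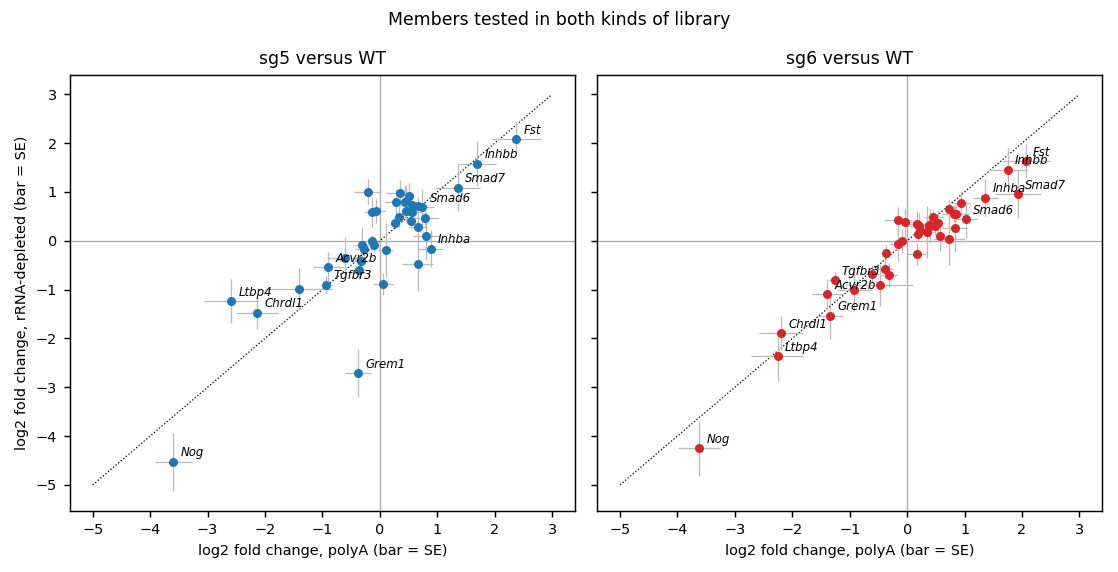
Log2 fold change against WT of the 40 members tested in both kinds of library, polyA on the x axis and rRNA-depleted on the y axis, with SE bars and a dotted line of equal values, for sg5 left and sg6 right. *Nog* is at the lower left and *Fst* at the upper right in each panel, and *Grem1* in sg5 lies at -0.38 in polyA and -2.71 in rRNA-depleted libraries.

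Of the 13 members with a change past the threshold in the polyA libraries, 6 overlap an annotated gene on the opposite strand in GENCODE: *Inhba*, *Tgfbr3*, *Acvr2b*, *Acvrl1*, *Fst* and *Fstl3*. Such overlaps are of whole gene spans, were present for 20 of all 51 members, and were not examined at the level of exons. The sources used here do not state strand settings for the counting. Whether reads of antisense partners were counted with these genes was therefore not tested.

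A further 80 genes of the pathway, from a separate list, put the members in context, and 61 were tested in the polyA libraries. That list, like the members, was chosen with earlier results of these data known, so its counts are not an independent test. At the threshold 11 rose and 4 fell in sg5 and 13 rose and 6 fell in sg6, against the shares of all genes given above for each clone. Among 11 TGF-beta targets tested, 4 rose and 1 fell at the threshold in each clone. Of these targets, *Ccn2*, the matricellular growth factor CTGF, had log2 fold changes of 2.78 and 2.70 in sg5 and sg6, *Acta2*, smooth muscle actin, 1.39 and 1.57, *Tagln*, the actin-binding protein transgelin, 1.79 and 1.83, and *Cdkn1a*, the cell cycle inhibitor p21, 1.02 and 1.26. *Pmepa1*, a TGF-beta-induced inhibitor of SMAD signalling, was at 1.34 and 1.86. The secreted target *Tgfbi* fell, by the log2 fold changes -2.81 and -3.41. Of the extracellular modulators, *Thbs1*, thrombospondin 1 and a known activator of latent TGF-beta, was at 2.92 and 3.40, *Tll1*, a protease that cleaves chordin, at 2.44 and 1.71, and *Lrrc32*, which displays latent TGF-beta on cells, at 1.82 and 1.31. *Fbn2*, fibrillin 2, was at -1.77 and -3.35. *Eng*, the co-receptor endoglin that works with ALK1, rose by 2.17 and 1.73, whereas its partner *Acvrl1* fell. The stress-responsive ligand *Gdf15* rose by 3.34 and 3.88. Of the 7 BMP targets tested, *Hey1* rose by 3.09 and 4.24 and *Msx2* was at -1.26 and -1.62. All of the further genes named here passed the threshold in each clone, with edgeR adjusted p of at most 0.0142. In the rRNA-depleted libraries, 6 of 51 tested passed in sg5, all of them upward, where 3.04% of all genes tested rose and 4.31% fell. The falls of *Tgfbi*, *Fbn2* and *Msx2* were thus not called in sg5 there. In sg6, 4 rose and 2 fell, against 2.16% and 3.59% of all genes tested. Of the 11 TGF-beta targets tested in these libraries, 2 rose in sg5 and 1 rose in sg6 at the threshold, and 0 fell.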

How the data were processed

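RNA of C3H/10T1/2 cells was sequenced in 9 polyA and 9 rRNA-depleted libraries, 3 for each of *Atrx* WT, sg5 and sg6, and groups were taken from the sample labels. For the polyA libraries the authors deposited expected counts per gene, made with Salmon (version 0.8.2 in the submitters' processing notes) and tximport on mm10 known genes. For the rRNA-depleted libraries the deposited values are counts per gene and transposable element locus, which the authors made with STAR and TElocal. Both tables held whole numbers. Salmon shares reads between similar transcripts, and strand settings are not given in the sources used here.

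Each table was fitted whole with edgeR 4.0.16 (R 4.3.3), using filterByExpr (minimum count 10), TMM scaling and quasi-likelihood tests on 3 groups, two-sided, with Benjamini-Hochberg adjustment over all features tested (15480 genes, or 56086 genes and loci of which 13303 were genes). SE is the log2 fold change divided by the square root of F. CPM used TMM-scaled library sizes. "Rose" and "fell" mean an adjusted p under 0.05, and a call in the counts at the threshold also needed a log2 fold change beyond 1. Members past the threshold in the polyA libraries, or past the adjusted p in both clones in both kinds of library, were described by library. The scripts were tested on simulated data. The members, the further pathway genes and the marker lists were chosen with earlier results of these data known. Library pairs within a group differed beyond sampling noise, so all were counted as separate. Alternatives were median-of-ratios scaling, DESeq2 1.42.0, no filter, a replicate block, fits of only the groups compared, polyA counts thinned to the smallest library, rRNA-depleted gene rows alone, the adjusted p alone and leaving out each library. Not every further pathway gene is reported here.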

Additional observations from a re-analysis of the deposited data

Results flagged for a closer look

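The level of *Grem1* differed between the knockout clones by the adjusted p, in the polyA libraries alone. In the polyA libraries its log2 fold change of sg5 over sg6 was 0.96 ± 0.23 (edgeR adjusted p = 0.0489), and all 3 sg5 libraries lay above all 3 sg6 libraries. It was the one of 46 members tested that passed, and the call was kept in 2 of 9 fits that each left out one library, with log2 fold changes of 0.78 to 1.16 and adjusted p of 0.0290 to 0.156. In the rRNA-depleted libraries the same comparison gave -1.17 ± 0.50 (edgeR adjusted p = 0.582). The cause of the opposite signs was not tested.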

How the results depend on the processing

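Members were few per call, so counts were small and moved by single genes. Shares of all genes were taken for the main fits alone, so counts from the other fits have no share beside them. In the polyA libraries, median-of-ratios scaling, DESeq2, no filter, the replicate block, fits of only the 2 groups compared and thinned counts each gave 3 higher and 5 or 6 lower in sg5 and 4 or 5 higher and 8 lower in sg6. By the adjusted p alone 16 rose and 8 fell in sg5, 15 rose in sg6 and 1 member (*Grem1*) differed between the clones, which also passed the fold threshold with thinned counts (1 member). In the rRNA-depleted libraries the members higher in sg5, 1 in the report, numbered 4 with DESeq2, 5 with no filter, 3 with the replicate block, 2 with only the groups compared, 2 with gene rows alone and 3 by the adjusted p alone. Those higher in sg6, also 1, numbered 2 with DESeq2, no filter, the replicate block or only the groups compared. By the adjusted p alone 5 fell in sg5, and with the replicate block 5 fell in sg6, where the report has 3 in each. Leaving out one library at a time gave 2 to 5 higher and 5 to 6 lower in sg5 and 4 to 8 higher and 8 to 9 lower in sg6 (polyA), and 1 to 7 and 2 to 3 in sg5 and 0 to 2 and 1 to 3 in sg6 (rRNA-depleted). Between the clones it gave 0 in every fit. Among the fold changes recomputed, the one change of sign was *Inhba* in sg5 in the rRNA-depleted libraries, not past the test, at 0.08 without WT replicate 2 and 0.19 without sg5 replicate 1 in a range of -0.36 to 0.19 (log2 scale). The causes of these changes were not tested.

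Same-numbered libraries deviated from their group means with correlations of 0.0257 to 0.430 in the polyA and -0.229 to 0.638 in the rRNA-depleted libraries. Over the 3 lines not every pair passed 0.1, so the numbers were not taken as pairing, although all 3 pairs did between WT and sg6 in the rRNA-depleted libraries and between sg5 and sg6 in each kind. As a hint from the data, the best partner had the same number for 9 of 9 polyA and 6 of 9 rRNA-depleted libraries. With the replicate block 3 members rose and 6 fell in sg5 and 5 rose and 8 fell in sg6 in the polyA libraries. Calls by the adjusted p were recomputed only for members described by library or already past it. Among these, the block changed those of *Inhbb* in both clones and *Grem1* in sg6, all in the rRNA-depleted libraries. At the threshold the block gave 3 higher in sg5 and 5 lower in sg6 in those libraries, which is more than these changes account for. The further members were not identified. Counts of members past the threshold in both clones together were not run, since the comparisons share WT libraries. Under median-of-ratios scaling, DESeq2 and no filter, the median log2 fold change of all rRNA-depleted genes in sg5 was 0.13, 0.13 and 0.12, and changes there are relative to it.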
